A study of Mus musculus with 8 samples.

Results

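A set of 9 genes of inflammatory signalling were followed in mouse embryonic fibroblasts of genotype TSC2+/+ and strain C57BL/6J, which are cultured connective tissue cells taken from embryos. They are the chemokines Ccl2, Ccl7, Cxcl1 and Cxcl5, the cytokines Il6 and Lif, the prostaglandin enzyme Ptgs2, and the NF-kB inhibitors Nfkbia and Tnfaip3. They were chosen by a list of 9 Ensembl identifiers among the 28785 genes listed in any library, and all 9 were listed in all 4 libraries. The groups were chromatin RNA of cells kept for 1 h at 42 °C and then for 3 h at 37 °C (heat shock with recovery), chromatin RNA of control cells without heat shock, cytoplasmic RNA of the heat shocked cells, and cytoplasmic RNA of the control cells. Each group was 1 library, so no difference below has a replicate check and no test was made. The lysis and wash buffers used for all cells contained alpha-amanitin, an inhibitor of RNA polymerase II, per the labels' protocols. The labels do not say whether the cells were primary or immortalised, nor whether the 2 fractions of a condition came from the same dish.

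NF-kB transcription factors are held in the cytoplasm by IkB proteins until a signal has the IkB destroyed, after which they enter the nucleus and switch on chemokine and cytokine genes. The same factors switch on the inhibitors that end the response, among them the IkB protein encoded by Nfkbia and the ubiquitin-editing enzyme encoded by Tnfaip3. Fibroblasts are known as a source of chemokines that draw monocytes and neutrophils into injured tissue.

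The libraries held 19536459 reads for chromatin after heat shock, 18364642 for control chromatin, 11131382 for cytoplasm after heat shock and 8292312 for control cytoplasm, as recovered from the RPKM values. RPKM is reads per kilobase of gene and per 1000000 reads, and here the gene length is the whole span with introns, so it understates spliced RNA of long genes. The span implied by the values differed from the RefSeq span of the same symbol by at most 247 bp, and by at most 10 bp for 6 of the 9 genes. Intervals on ratios and levels are exact 95% intervals on reads (Clopper-Pearson for ratios, Poisson for levels). Those on differences between fractions are approximate 95% intervals, from a normal approximation with a standard error from the read counts. All cover counting error only, because reads that carry no molecular identifier may be copies of the same molecule. In such bulk samples, fewer cells that hold an RNA and less of it per cell cannot be told apart. The files give identifiers only, and the gene table used here holds 0 Ensembl identifiers, so receptors, other NF-kB targets, heat shock genes and cell type markers were not analysed here and the labels were not checked against them.

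The genes lie on 5 chromosomes of build GRCm38. Ccl2 (ENSMUSG00000035385) spans chr11:82035577-82037452 and Ccl7 (ENSMUSG00000035373) chr11:82045712-82047525, with 8259 bp and 0 annotated genes between them. Cxcl5 (ENSMUSG00000029371) spans chr5:90759298-90761625 and Cxcl1 (ENSMUSG00000029380) chr5:90891245-90893121, with Ppbp, Pf4, Cxcl3 and Cxcl15 between them. Il6 (ENSMUSG00000025746) spans chr5:30013114-30019975, where it overlaps the lncRNA A230098N10Rik, and Lif (ENSMUSG00000034394) spans chr11:4257568-4272514. Ptgs2 (ENSMUSG00000032487) spans chr1:150100031-150108234, Nfkbia (ENSMUSG00000021025) chr12:55489409-55492647 on the minus strand, and Tnfaip3 (ENSMUSG00000019850) chr10:19000910-19015410 on the minus strand. The other 8 genes overlapped no gene of this RefSeq annotation. The strand handling of the counts is not given in the sources used here, so reads of Il6 and of the lncRNA cannot be told apart.

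Promoter sequences, the 250 bases before the transcription start, were read from RefSeq (GRCm38.p6) for the 6 of 9 genes that the table held. The following 5 are shown because their genes differed in opposite ways after heat shock: Cxcl1 and Il6 were lower in chromatin, Lif and Ptgs2 higher in chromatin, and Tnfaip3 higher in cytoplasm. They are printed from 5′ to 3′ on the gene's own strand, and capitals mark matches to the kB consensus, the sequence bound by NF-kB dimers, on either strand.
Cxcl1 (chr5:90890995-90891244, plus strand): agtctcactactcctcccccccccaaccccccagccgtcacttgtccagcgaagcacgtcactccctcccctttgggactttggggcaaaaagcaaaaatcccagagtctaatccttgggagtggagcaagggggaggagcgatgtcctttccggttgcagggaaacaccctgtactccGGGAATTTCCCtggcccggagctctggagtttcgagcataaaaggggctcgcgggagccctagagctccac
Il6 (chr5:30012864-30013113, plus strand): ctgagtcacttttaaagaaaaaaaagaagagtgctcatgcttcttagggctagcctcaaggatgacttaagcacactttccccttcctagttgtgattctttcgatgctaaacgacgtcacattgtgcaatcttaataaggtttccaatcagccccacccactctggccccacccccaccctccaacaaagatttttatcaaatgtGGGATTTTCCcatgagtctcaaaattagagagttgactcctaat
Lif (chr11:4257318-4257567, plus strand): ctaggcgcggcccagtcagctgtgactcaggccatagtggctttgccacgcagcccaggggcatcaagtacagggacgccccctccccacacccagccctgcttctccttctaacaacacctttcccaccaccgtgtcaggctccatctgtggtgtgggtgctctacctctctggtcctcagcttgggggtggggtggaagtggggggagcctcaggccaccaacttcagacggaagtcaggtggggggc
Ptgs2 (chr1:150099781-150100030, plus strand): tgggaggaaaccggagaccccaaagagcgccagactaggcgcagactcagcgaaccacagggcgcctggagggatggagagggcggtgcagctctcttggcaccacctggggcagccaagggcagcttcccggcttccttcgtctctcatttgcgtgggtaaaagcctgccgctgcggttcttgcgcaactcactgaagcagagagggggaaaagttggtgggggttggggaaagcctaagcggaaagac
Tnfaip3 (chr10:19015411-19015660, minus strand): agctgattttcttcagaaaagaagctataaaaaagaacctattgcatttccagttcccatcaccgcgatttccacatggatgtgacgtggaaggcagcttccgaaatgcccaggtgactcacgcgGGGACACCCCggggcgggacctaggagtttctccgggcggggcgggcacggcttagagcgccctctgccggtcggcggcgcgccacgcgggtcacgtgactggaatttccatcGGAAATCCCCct

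With only the first window of each gene counted, the kB consensus was found in 4 of the 6, against 3.90% of all 32851 promoter windows. Those have the same length and include further starts of the same gene. The genes were chosen as chemokine and NF-kB genes, so this contrast is a description and was not tested. In Cxcl1 the consensus lay from -71 to -61 relative to the start, as 2 overlapping matches, and in Il6 from -44 to -35. In Tnfaip3 there were 2 matches, from -125 to -116 and from -12 to -3, and in Nfkbia 1 match from -29 to -20. The windows of Lif and Ptgs2 held 0 matches, which says only that these letters are not in these 250 bases. The table held a second start for Tnfaip3, and its window had 0 matches. TGANTCA, the core bound by AP-1 factors, was found in Il6, Lif and Tnfaip3 (6.75% of all windows), and TGACGT, part of the cAMP response element, in Cxcl1, Il6 and Tnfaip3 (6.47%). TATAAA was found in Tnfaip3 (12.4%), and GAANNTTC, an inverted pair of heat shock factor units, in 0 of the 6 (6.69%). Both strands were searched and these motifs overlapped none of the kB matches. A match is a description of the sequence and no measurement of binding.

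Ccl2 and Cxcl1 were the most abundant of the 9 per kilobase of span in all 4 libraries, and Il6 and Cxcl5 were at the low end in 3 of them. In chromatin after heat shock the RPKM levels ran, from high to low, in the order Ccl2, Cxcl1, Nfkbia, Tnfaip3, Lif, Ccl7, Ptgs2, Il6 and Cxcl5. There the intervals of Cxcl1 and Nfkbia, Nfkbia and Tnfaip3, Lif and Ccl7, and Il6 and Cxcl5 overlapped. In control chromatin the order was Cxcl1, Ccl2, Nfkbia, Ccl7, Tnfaip3, Cxcl5, Lif, Il6 and Ptgs2, with overlap between Nfkbia, Ccl7 and Tnfaip3 as neighbours and between Cxcl5, Lif and Il6.

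In cytoplasm after heat shock the order was Ccl2, Cxcl1, Ccl7, Nfkbia, Tnfaip3, Lif, Ptgs2, Cxcl5 and Il6, and the intervals of Cxcl1 and Ccl7, Ccl7 and Nfkbia, Lif and Ptgs2, and Cxcl5 and Il6 overlapped. In control cytoplasm Lif stood before Tnfaip3 and the order was otherwise the same, and each neighbouring pair from Lif to Il6 overlapped, as did Ccl7 and Nfkbia. The 9 genes together held 3623 reads in chromatin after heat shock, 4587 in control chromatin, 1082 in cytoplasm after heat shock and 862 in control cytoplasm. Per 1000000 reads this was 185 and 250 in chromatin after heat shock and in control chromatin, and 97.2 and 104 in cytoplasm after heat shock and in control cytoplasm.

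**Figure D1:**
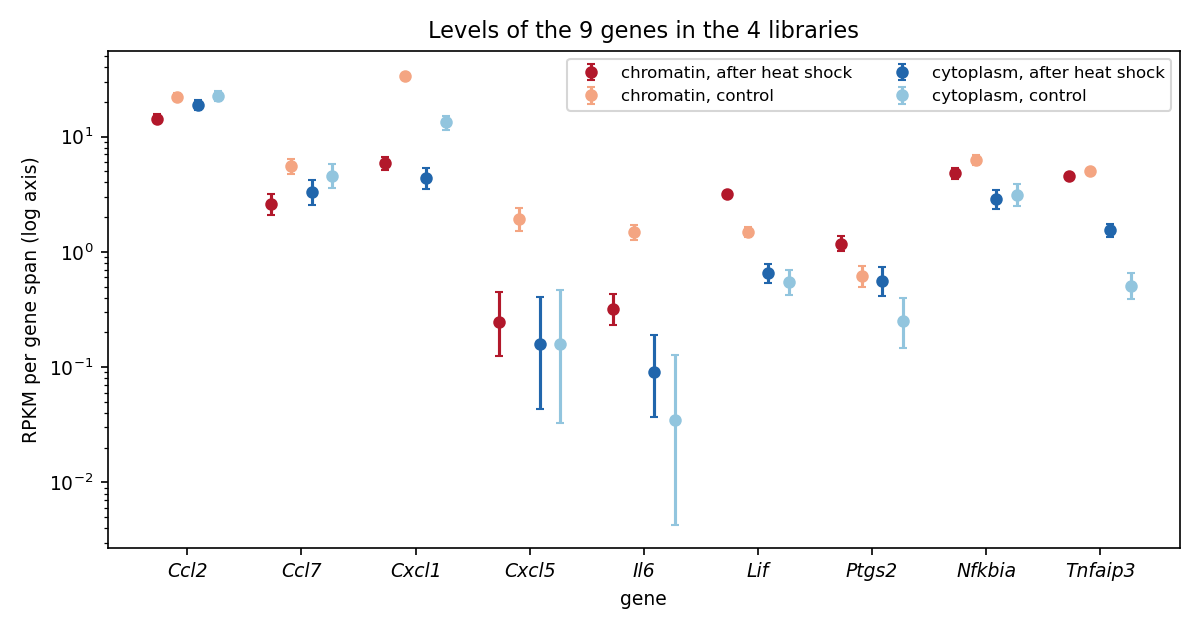
RPKM per gene span (log axis) of each of the 9 genes in the 4 libraries, with 1 point per library and bars for exact 95% Poisson intervals on reads. Cxcl1 stood at 5.84 RPKM in chromatin after heat shock and 33.3 RPKM in control chromatin, while Il6 and Cxcl5 had wide intervals in cytoplasm.

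In chromatin, the chemokines and Il6 were lower after heat shock than in control cells, Lif and Ptgs2 were higher, and the NF-kB inhibitors Nfkbia and Tnfaip3 were 1.30-fold and 1.09-fold lower. Of the 9 genes, all of which had at least 10 reads in both libraries together, 4 were at least 2-fold lower and 1 was higher by that much. Over the 17815 genes tested in the same way, 16.3% passed the threshold as lower and 25.7% as higher. Among genes with at least 50 reads these shares were 18.5% and 17.2%, and all 9 genes had that many. With the same RPKM sum given to both libraries, 6 of the 9 were at least 2-fold lower, with Ccl2 at a fold of 0.415 and Nfkbia at 0.494 now included, and 0 were higher. On that scale the median log2 ratio of all genes was -0.56, and the share of all genes passing was not computed. Without the 10 highest genes in the scale, 3 of the 9 were lower and 2 higher by that threshold, and the share of all genes passing was not computed there either. On the deposited scale the median fold was 0.647 over the 9 genes and 1.06 over the 17521 genes with reads in both libraries.

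The CC chemokines Ccl2 and Ccl7, which attract monocytes through the receptor Ccr2, had the smaller differences among the chemokines. Ccl2 had 14.3 RPKM (525 reads) in chromatin after heat shock and 22.1 RPKM (763 reads) in control chromatin, 1.55-fold lower with an interval of 1.38 to 1.73. Ccl7 had 2.60 RPKM (92 reads) after heat shock and 5.52 RPKM (184 reads) in control, 2.13-fold lower with an interval of 1.65 to 2.76. The intervals of both excluded equal levels, and that of Ccl7 included the 2-fold threshold.

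The CXC chemokines Cxcl1 and Cxcl5 attract neutrophils through the receptor Cxcr2, and in chromatin both were far below their control level. Cxcl1 had 5.84 RPKM (214 reads) in chromatin after heat shock and 33.3 RPKM (1148 reads) in control chromatin, 5.71-fold lower with an interval of 4.93 to 6.63. Only 1.61% of genes with reads in both chromatin libraries had a ratio as low or lower. Cxcl5 had 0.249 RPKM (11 reads) after heat shock and 1.92 RPKM (80 reads) in control, 7.74-fold lower with an interval of 4.10 to 16.1, and 0.736% of genes were as low or lower. The Cxcl5 interval contains the whole Cxcl1 interval, and that of Il6 (3.29 to 6.57) overlaps both, so these reads do not order the 3 genes.

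Il6, a cytokine that signals through a receptor chain shared with Lif, had 0.320 RPKM (43 reads) in chromatin after heat shock and 1.47 RPKM (186 reads) in control chromatin. This was 4.60-fold lower, with an interval of 3.29 to 6.57, and 2.68% of genes had a ratio as low or lower. Lif, known for keeping mouse embryonic stem cells undifferentiated, went the other way in chromatin. It had 3.17 RPKM (927 reads) after heat shock and 1.50 RPKM (411 reads) in control, 2.12-fold higher with an interval of 1.89 to 2.39. The ratio was high within these 9 genes and not among all genes, of which 77.1% had a ratio as low or lower.

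Ptgs2, the inducible cyclooxygenase that makes prostaglandin precursors, had 1.18 RPKM (189 reads) in chromatin after heat shock and 0.611 RPKM (92 reads) in control chromatin, 1.93-fold higher with an interval of 1.50 to 2.51. The interval lay on both sides of the 2-fold threshold. Nfkbia had 4.81 RPKM (304 reads) after heat shock and 6.24 RPKM (371 reads) in control, 1.30-fold lower with an interval of 1.11 to 1.52. Tnfaip3 had 4.57 RPKM (1318 reads) after heat shock and 4.99 RPKM (1352 reads) in control, 1.09-fold lower with an interval of 1.01 to 1.18. The direction for Tnfaip3 turned to 1.04-fold higher when the totals were taken without the 10 genes of highest mean RPKM, and those of the other 8 genes held on the 4 scales tried.

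Gene span moved with the chromatin ratio, and its part in the values above was not tested. The median fold after heat shock in chromatin was 1.32 over 2405 genes with spans over 1 to 5 kb, the class of the 4 chemokines and Nfkbia. It was 1.07 over 5465 genes with spans over 5 to 20 kb, the class of Il6, Lif, Ptgs2 and Tnfaip3. The 4 chemokines were thus lower than in control in a class whose median was higher.

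**Figure D2:**
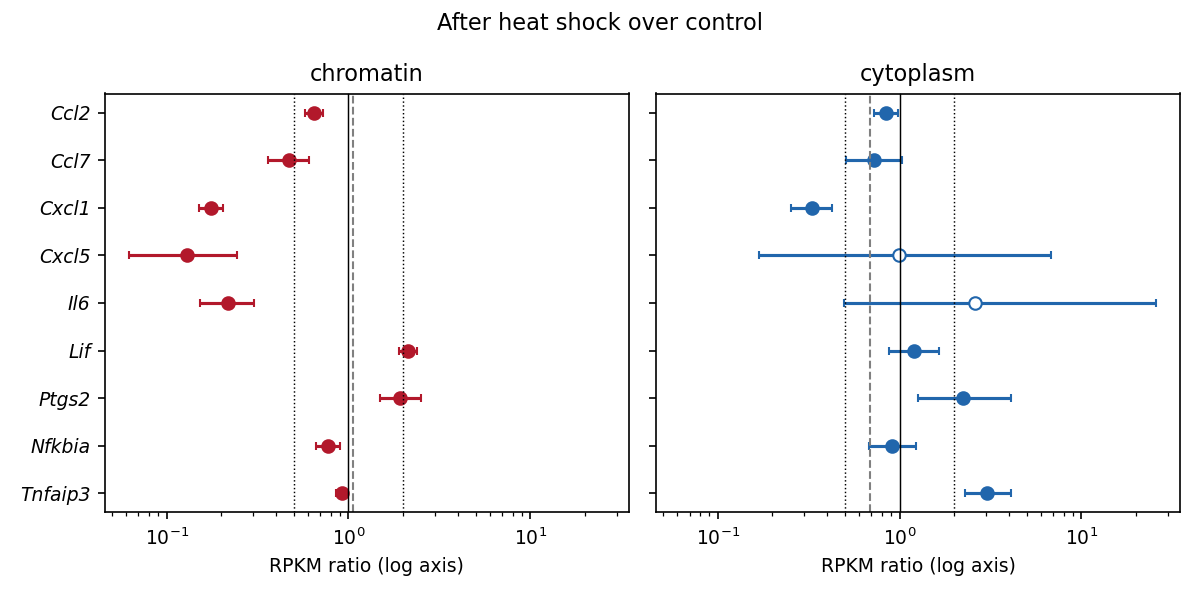
RPKM ratio after heat shock over control (log axis) in chromatin (left) and cytoplasm (right), with 1 point per gene bars for exact 95% intervals, a solid line at equal levels, dotted lines at 2-fold, a dashed line at the median gene, and open points for genes with under 10 reads together. Cxcl1 was lower in both fractions (5.71-fold and 3.04-fold), and Tnfaip3 was 3.04-fold higher in cytoplasm.

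In cytoplasm, Tnfaip3 and Ptgs2 were higher after heat shock and Cxcl1 was lower. Of the 9 genes, 7 had at least 10 reads in both libraries together, and of these 2 were higher by at least 2-fold and 1 was lower by as much. Over the 12391 genes tested, 14.1% passed as higher and 21.2% as lower. The median fold was 0.688, so the typical gene was lower after heat shock on the deposited scale. The median fold of the 7 genes was 0.913. With at least 50 reads, 6.43% of 8673 genes passed as higher and 21.3% as lower.

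Ccl2 had 18.9 RPKM (397 reads) in cytoplasm after heat shock and 22.5 RPKM (351 reads) in control cytoplasm, 1.19-fold lower with an interval of 1.03 to 1.37. Ccl7 had 3.32 RPKM (67 reads) after heat shock and 4.59 RPKM (69 reads) in control, 1.38-fold lower with an interval of 0.973 to 1.96 that includes equal levels. With the median gene set to no change, Ccl2 was 1.23-fold and Ccl7 1.05-fold higher, so neither has a settled direction in cytoplasm. Cxcl1 had 4.36 RPKM (91 reads) after heat shock and 13.2 RPKM (206 reads) in control, 3.04-fold lower with an interval of 2.36 to 3.93. It was lower on all 4 scales tried, by 2.09-fold relative to the median gene, and 5.12% of genes had a ratio as low or lower.

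Cxcl5 and Il6 were near the limit of detection in cytoplasm. Cxcl5 had 4 reads (0.159 RPKM) after heat shock and 3 reads (0.160 RPKM) in control, with an interval for the ratio of 0.168 to 6.78. Il6 had 7 reads (0.0916 RPKM) after heat shock and 2 reads (0.0351 RPKM) in control, a ratio of 2.61 with an interval of 0.496 to 25.7. The lower bounds allow Cxcl5 to be up to 5.95-fold lower in cytoplasm after heat shock and Il6 up to 2.01-fold lower. In chromatin Cxcl5 was 7.74-fold lower with an interval that begins at 4.10, and Il6 was 4.60-fold lower with an interval that begins at 3.29. The cytoplasmic bound thus includes part of the chromatin interval for Cxcl5 and none of it for Il6, and neither gene reached 10 reads.

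Lif had 0.655 RPKM (109 reads) in cytoplasm after heat shock and 0.548 RPKM (68 reads) in control cytoplasm, a ratio of 1.19 with an interval of 0.874 to 1.64. Ptgs2 had 0.559 RPKM (51 reads) after heat shock and 0.250 RPKM (17 reads) in control, 2.23-fold higher with an interval of 1.27 to 4.13. Ptgs2 was therefore higher in each fraction, and its intervals in chromatin and cytoplasm overlapped.

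The inhibitors differed from each other in cytoplasm. Nfkbia had 2.86 RPKM (103 reads) after heat shock and 3.13 RPKM (84 reads) in control, a ratio of 0.913 with an interval of 0.678 to 1.23. Tnfaip3 had 1.54 RPKM (253 reads) after heat shock and 0.507 RPKM (62 reads) in control, 3.04-fold higher with an interval of 2.29 to 4.08. Of the genes with reads in both cytoplasmic libraries, 90.8% had a ratio as low as that of Tnfaip3 or lower. Across the 4 scales its fold ran from 2.60 to 4.42.

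The comparison of both fractions asked whether a gene differed after heat shock by the same factor in chromatin and in cytoplasm. Of the 7 genes with at least 10 reads in each pair of libraries, 0 had a log2 ratio that was larger by 1 or more in chromatin, and 1, Tnfaip3, had one that was larger by 1 or more in cytoplasm. That count was 4 with the median of all genes at 0, 3 at the same RPKM sum and 0 with a pseudocount of 1 RPKM, so it depends on the setting. Over the 11931 genes compared in this way the shares were 25.0% and 12.2% on the deposited scale. Shares over all genes were not computed for the other settings, so the counts of 4, 3 and 0 have none beside them. The median chromatin minus cytoplasm difference of log2 ratios was -0.38 over the 7 genes and 0.40 over all genes. With 1 library per group no difference between fractions was tested.

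For Tnfaip3 the log2 ratio was -0.13 in chromatin and 1.60 in cytoplasm on the deposited scale. The difference was -1.73, with an approximate counting interval of -2.15 to -1.31. Cxcl1 differed by -0.91 (-1.32 to -0.50), since it was lower in both fractions and more so in chromatin. At least 2-fold lower in both fractions were 7.63% of the 12076 genes tested in both, and Cxcl1 was the only one of the 7 among them. Higher in both by that threshold were 6.94% of genes and 0 of the 7. Lif differed by 0.83 (0.36 to 1.30) toward chromatin. The intervals of Ptgs2 and Nfkbia included 0, and those of Ccl2 (-0.64 to -0.12) and Ccl7 (-1.23 to -0.02) did not.

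These differences depend on the scale, since setting the median of all genes to 0 in each fraction moved every one by -0.62 and the same RPKM sum moved every one by -0.41. With the median at 0, Tnfaip3 differed by -2.35 and Cxcl1 by -1.53, both further toward cytoplasm. Lif then differed by 0.20, with an interval of -0.26 to 0.67 that includes 0, and Nfkbia by -0.87, with an interval of -1.34 to -0.40 that does not. Without the 10 highest genes every difference moved by 0.03, and the interval of Ccl7 (-1.19 to 0.02) then included 0. Tnfaip3, Cxcl1 and Ccl2 had intervals below 0 on all 4 scales.

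**Figure D3:**
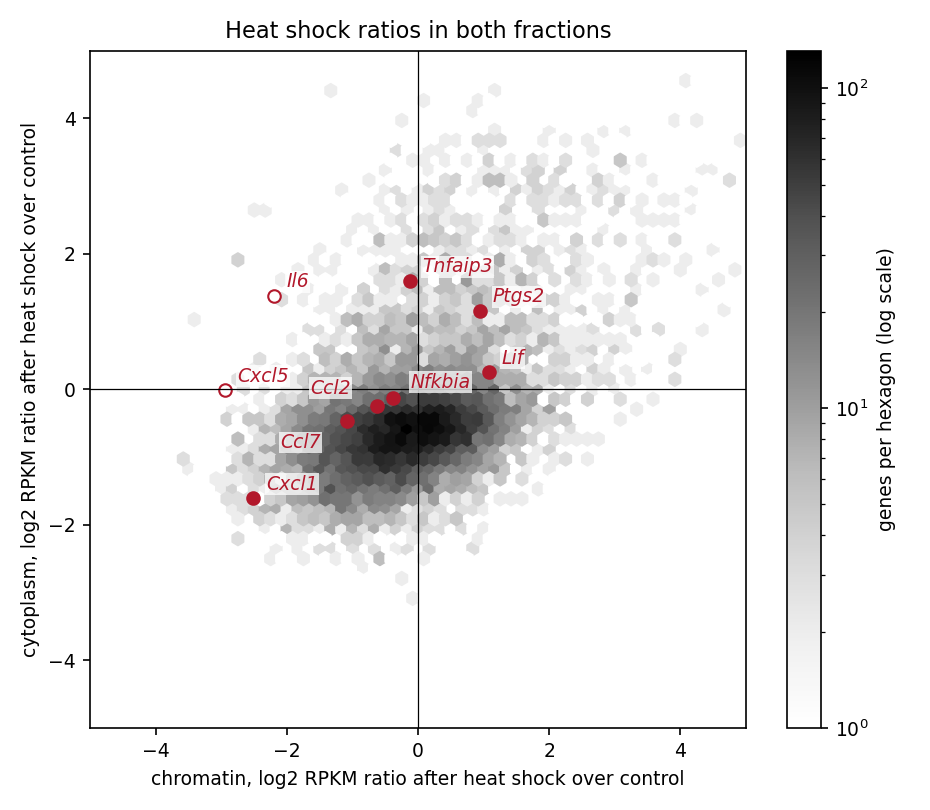
Log2 RPKM ratio after heat shock over control in chromatin (horizontal axis) and cytoplasm (vertical axis) for 11867 genes in grey hexagons, with the 9 genes as red points, open for Cxcl5 and Il6 (under 10 cytoplasmic reads), and 64 genes beyond the axes not drawn. Cxcl1 lies low in both fractions and Tnfaip3 near 0 in chromatin and at 1.60 in cytoplasm.

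Chromatin was then compared with cytoplasm within each condition, using the same 4 libraries as the heat shock ratios. The change of a gene's chromatin over cytoplasm ratio between conditions is the same quantity as its difference between fractions above. It is not a further result. On the deposited scale the intervals of Ccl2 and Ccl7 included equal RPKM in both fractions in control cells. After heat shock that of Ccl7 did too, while Ccl2 was lower in chromatin, at a ratio of 0.753 with an interval of 0.660 to 0.861. Both genes changed direction across the 4 scales in each condition. Furthest toward chromatin in control cells were Il6, Cxcl5 and Tnfaip3, the first 2 on 2 and 3 cytoplasmic reads. After heat shock it was Lif, with an interval that overlapped those of Il6 and Cxcl5. After heat shock, 4 of the 9 passed the 2-fold threshold toward chromatin and 0 toward cytoplasm, as did 73.5% and 6.9% of 17313 genes. In control cells 6 passed toward chromatin and 0 toward cytoplasm, as did 68.0% and 7.21% of 14624 genes. The members' median fold was 1.68 after heat shock and 2.52 in control, below the median gene at 4.13 and 3.39.

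Ccl2 had a chromatin over cytoplasm ratio of 0.753 after heat shock (0.660 to 0.861) and 0.982 in control (0.864 to 1.12). Ccl7 had 0.782 after heat shock (0.565 to 1.09) and 1.20 in control (0.908 to 1.61). Cxcl1 had 1.34 after heat shock (1.04 to 1.73) and 2.52 in control (2.17 to 2.93). The ratio of Cxcl1 was thus lower after heat shock, with intervals that do not overlap.

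Il6 had the highest chromatin over cytoplasm ratio of the 9 in control cells, 42.0 with an interval of 11.5 to 349, against 3.50 after heat shock (1.56 to 9.22). Of the genes with reads in both control libraries, 99.3% had a ratio as low or lower. That share covers 13668 of the 14624 genes tested and leaves out genes without a read in 1 of the libraries. Genes with chromatin reads and no cytoplasmic read are therefore not ranked against Il6. The cytoplasmic part of Il6 rests on 7 reads after heat shock and 2 reads in control. Cxcl5 had 1.57 after heat shock (0.464 to 6.75) and 12.0 in control (3.97 to 59.6), on 4 and 3 cytoplasmic reads.

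Tnfaip3 had a chromatin over cytoplasm ratio of 2.97 after heat shock (2.59 to 3.41) and 9.85 in control (7.63 to 12.9), and these intervals do not overlap. Nfkbia had 1.68 after heat shock (1.34 to 2.12) and 1.99 in control (1.57 to 2.56). Lif had 4.85 after heat shock (3.97 to 5.97) and 2.73 in control (2.11 to 3.58), the reverse order of Tnfaip3. Ptgs2 had 2.11 after heat shock (1.54 to 2.94) and 2.44 in control (1.45 to 4.37). Setting the median of all genes to 0 moved all chromatin over cytoplasm log2 ratios by -2.05 after heat shock and -1.76 in control. Relative to that median, Lif was the only one of the 9 above it after heat shock, and Il6, Cxcl5 and Tnfaip3 were above it in control. After heat shock the intervals of Lif, Il6 and Cxcl5 included the median gene at 4.13, so these reads do not place Lif alone above it. In control those of Lif and Ptgs2 included the median gene at 3.39.

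Gene span moved with the chromatin over cytoplasm ratio too, and its part was not tested. The median ratio was 2.34 after heat shock and 1.33 in control over genes with spans over 1 to 5 kb, the class of the chemokines and Nfkbia. It was 3.04 after heat shock and 2.19 in control over genes with spans over 5 to 20 kb, the class of Il6, Lif, Ptgs2 and Tnfaip3. After heat shock all 4 chemokines and Nfkbia were below the median of their class, while in control Ccl2 and Ccl7 were below it and Cxcl1, Cxcl5 and Nfkbia above it. In the class of longer spans, Il6 and Lif were above the median after heat shock and Ptgs2 and Tnfaip3 below it, and in control all 4 were above it. These are positions of the point values. The counting intervals of Cxcl5, Il6 and Tnfaip3 after heat shock included the median of their class. So did those of Ccl7, Lif and Ptgs2 in control.

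**Figure D4:**
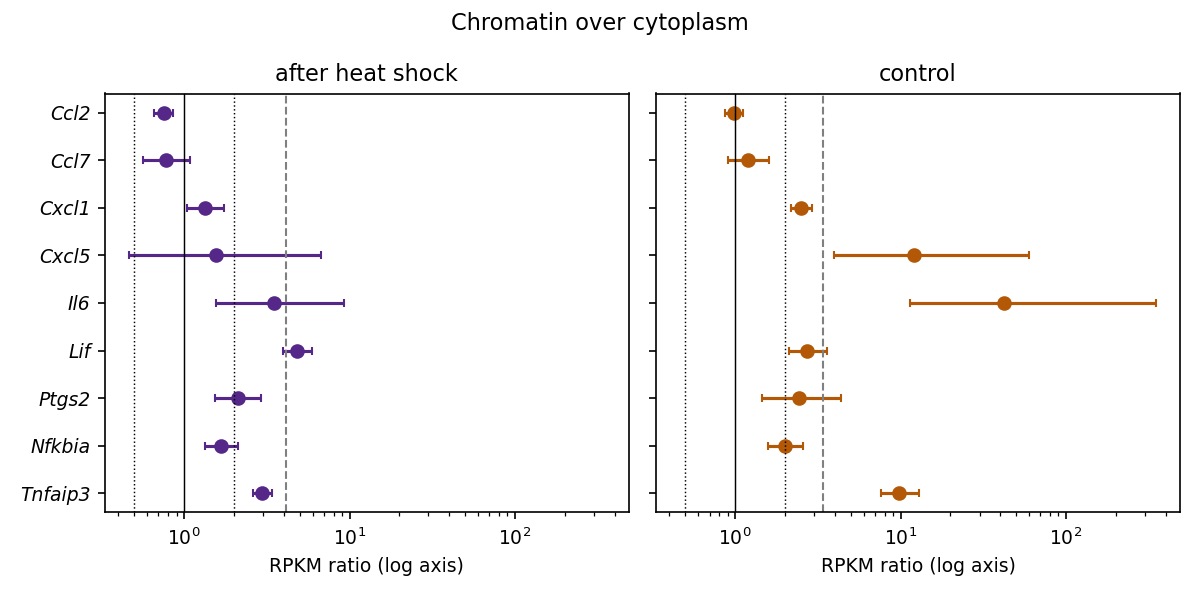
RPKM ratio of chromatin over cytoplasm (log axis) after heat shock (left) and in control cells (right), with 1 point per gene bars for exact 95% intervals, a solid line at equal levels, dotted lines at 2-fold and a dashed line at the median gene (4.13 and 3.39). Tnfaip3 stood at 2.97 after heat shock, below the median gene, and at 9.85 in control cells, above it.

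RPKM is relative to each library's total, so the ratios were also taken on 3 other scales. Giving both libraries the same RPKM sum moved all log2 ratios by -0.64 in chromatin and -0.23 in cytoplasm, setting the median of all genes to 0 moved them by -0.08 and 0.54, and leaving out the 10 highest genes moved them by 0.18 and 0.14. In chromatin, the 4 chemokines, Il6 and Nfkbia were lower and Lif and Ptgs2 higher on all 4 scales, with folds for Lif of 1.36 to 2.40 and for Ptgs2 of 1.24 to 2.18. In cytoplasm, Cxcl1 was lower and Tnfaip3, Ptgs2, Lif and Il6 were higher on all 4, although Lif came to 1.02 at the lowest and Il6 rests on 9 reads. Ccl2, Ccl7, Cxcl5 and Nfkbia changed direction in cytoplasm.

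**Figure D5:**
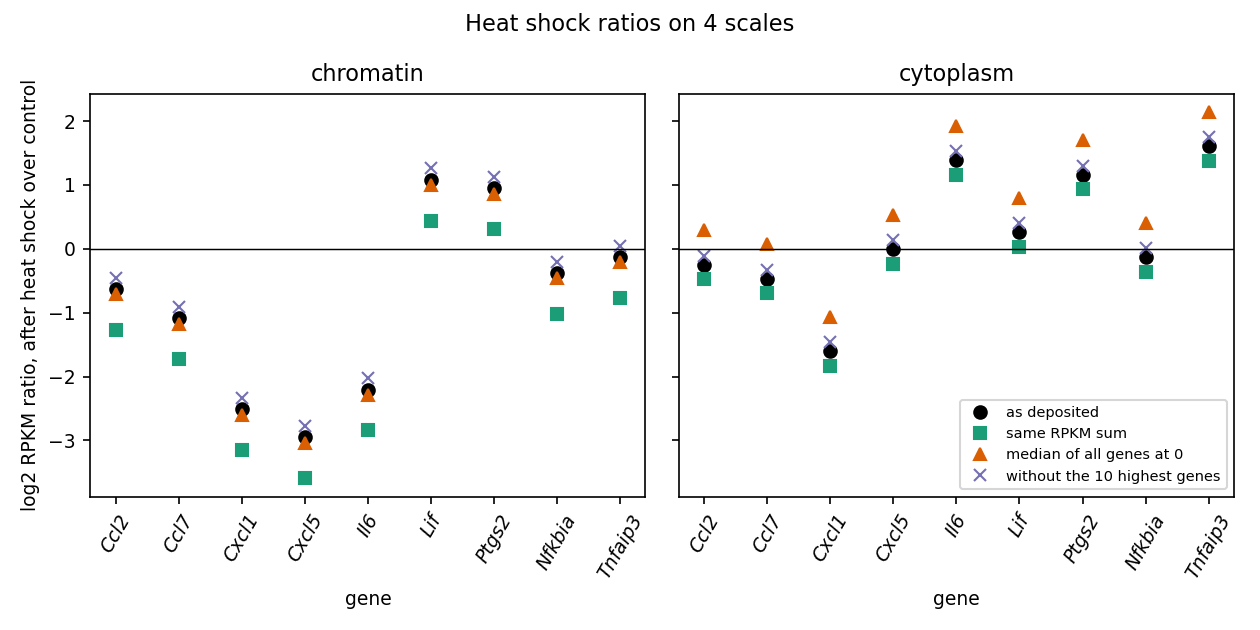
Log2 RPKM ratio after heat shock over control in chromatin (left) and cytoplasm (right) for each of the 9 genes on 4 scales, shown by marker shape, with all genes of a fraction moved together. Lif and Ptgs2 stay above 0 and the 4 chemokines and Il6 below 0 in chromatin.

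Ratios between 2 of the genes within a library do not depend on the scale. The Cxcl1 over Ccl2 ratio was 0.409 in chromatin after heat shock and 1.51 in control chromatin, 3.69-fold lower, and in cytoplasm it was 0.230 after heat shock and 0.589 in control, 2.56-fold lower. The Ccl7 over Ccl2 ratio was 0.182 in chromatin after heat shock and 0.250 in control chromatin, and 0.175 in cytoplasm after heat shock and 0.204 in control cytoplasm. The CC pair thus kept closer to each other than to Cxcl1.

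The Lif over Il6 ratio was 9.90 in chromatin after heat shock and 1.01 in control chromatin, 9.76-fold higher. In cytoplasm it was 7.15 after heat shock and 15.6 in control, 2.18-fold lower, on 7 and 2 reads of Il6. The Tnfaip3 over Nfkbia ratio was 0.952 in chromatin after heat shock and 0.800 in control chromatin, while in cytoplasm it was 0.539 after heat shock and 0.162 in control, 3.33-fold higher. Over all pairs of these genes, 26 of 36 differed by at least 1 in their log2 heat shock ratio in chromatin, and 13 of 21 in cytoplasm. Pairs of other genes were not counted, so these counts do not set the members apart. The 9 genes covered 4.04 log2 units in chromatin and the 7 tested genes 3.21 in cytoplasm, and the ratios lay on both sides of 0 in each fraction.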

How the data were processed

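RNA-seq of the chromatin and cytoplasmic fractions was used, with 1 library per group, grouped by sample title. RNA fragments were size-selected on a gel before library preparation, per the labels' protocols. The m6A immunoprecipitation libraries and their inputs were not analysed here. The deposited files hold 1 RPKM value per Ensembl identifier, computed by the authors, and a gene absent from a file had no read there. STAR, Cutadapt and build GRCm38 are listed without versions, per the submitters' processing notes. The counter, annotation release and strand handling of the authors are not stated in the sources used.

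The library totals were recovered as the common divisor of inverse RPKM values, in single reads and bases, that were whole within 0.002, over 20000 random pairs. Reads and spans were then the smallest whole numbers that give the RPKM values in all 4 libraries, with a relative error under 1e-12. The recovery was tested on simulated data. Recovered reads made up 98.5%, 98.4%, 99.7% and 99.6% of the totals (chromatin after heat shock, control chromatin, cytoplasm after heat shock, control cytoplasm).

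Folds are plain RPKM ratios without a pseudocount. A gene was tested with at least 10 reads in both libraries together and counted at 2-fold, and a gene without reads in 1 library was set at 3 reads. Alternatives were pseudocounts of 1 and 0.1 RPKM, 3 scales and 3 filters. The members, lists and rules were chosen with earlier results of these data known. All 9 members are named, and the rule for other named genes was the 5 nearest to the members' median of 3 log2 ratios. The 9 gene lists and 4 marker lists were not analysed here, since the gene table holds 0 Ensembl identifiers. The motif search, the ratios between members and the span classes were chosen after the values were seen. Python 3.11.15, numpy 2.4.6, pandas 2.3.3, scipy 1.17.1 and matplotlib 3.10.9 were used.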

Additional observations from a re-analysis of the deposited data

Results flagged for a closer look

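The heat shock ratio had opposite signs in chromatin and cytoplasm for 2 of the 9 genes on the deposited scale, and with 1 library per group this difference was not tested. The share of all genes with opposite signs was not computed. The median log2 ratio of all genes itself was 0.08 in chromatin and -0.54 in cytoplasm, so the count does not set the 9 genes apart. For Tnfaip3 the log2 ratio in chromatin minus that in cytoplasm was -1.73, with 1318 and 1352 chromatin reads and 253 and 62 cytoplasmic reads after heat shock and in control. Its chromatin ratio turned positive when the scale left out the 10 highest genes. For Il6 the difference was -3.58, with 43 and 186 chromatin reads and 7 and 2 cytoplasmic reads after heat shock and in control.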

How the results depend on the processing

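With 1 library per group, these values describe 4 libraries and nothing can be left out. No paired analysis was possible because each group holds 1 library and shares only 1 replicate number with the others. The planned counts over the gene lists were not run, since the identifiers were not paired with names. Depth limits the cytoplasmic values of Cxcl5 and Il6 most. Of 80 counts of members under 8 alternatives, 56 stayed within 1.5 times the main count and 24 did not, and the cause was not tested, except that 6 instead of 9 genes could be counted with a mean of at least 1 RPKM and 9 instead of 7 in cytoplasm without a read minimum. In chromatin, where 4 genes were lower and 1 higher after heat shock, 2 were lower and 0 higher with a pseudocount of 1 RPKM, and 6 lower and 0 higher at the same RPKM sum. There 3 were lower and 2 higher without the 10 highest genes, and 2 were lower with a mean of at least 1 RPKM. In cytoplasm, where 2 were higher, 0 were with a pseudocount of 1 RPKM, and 1 was with 0.1 RPKM, at the same RPKM sum and with a mean of at least 1 RPKM. Of the 7 genes compared between fractions, 1 was at least 1 log2 unit higher in cytoplasm, against 0 with a pseudocount of 1 RPKM, 3 at the same RPKM sum, 4 with the median at 0 and 3 of 9 without a read minimum. Against cytoplasm after heat shock, where 4 were higher in chromatin and 0 lower, 2 were higher with a pseudocount of 1 RPKM, 7 at the same RPKM sum, 0 (and 5 lower) with the median at 0, 2 (and 2 lower) without the 10 highest genes and 2 with a mean of at least 1 RPKM. In control, where 6 were higher and 0 lower, 9 were higher at the same RPKM sum, 3 (and 2 lower) with the median at 0, and 3 without the 10 highest genes and with a mean of at least 1 RPKM. Shares over all genes were not computed for these alternative settings, so their counts have none beside them and do not set the members apart. Of 180 log2 ratios of single genes, 25 changed sign, of which 19 were ratios under 2-fold or under 10 reads on the deposited scale. The other 6 had passed the threshold, and all were chromatin over cytoplasm with the median of all genes at 0, for Il6 (-0.24), Ptgs2 (-0.97) and Tnfaip3 (-0.48) after heat shock and Cxcl1 (-0.43), Lif (-0.31) and Ptgs2 (-0.47) in control.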

Other observations

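By likeness over 3 values per gene from the 4 libraries (the log2 heat shock ratio in each fraction and the log2 chromatin over cytoplasm ratio in control), 5779 other genes with at least 50 reads in each library were set against the members' median. ENSMUSG00000015652 was nearest at a Euclidean distance of 0.16 and had a span of 13010 bp, with log2 heat shock ratios of -0.60 in chromatin and -0.02 in cytoplasm. The median over all 9 members was -0.63 in chromatin and -0.01 in cytoplasm. The cytoplasmic one is the value of Cxcl5, on 4 and 3 reads, and over the 7 members with at least 10 reads it was -0.13. The 5 nearest genes lay at distances of 0.16 to 0.26 and had spans of 5951 to 60785 bp. Since the members cover 4.04 log2 units in chromatin, this median describes no single member well.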
